A study of Homo sapiens with 10 samples.

Results

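The genes described here form the ID protein branch of bone morphogenetic protein (BMP) signalling. They are the inhibitor of DNA binding genes ID1, ID2, ID3 and ID4, the E protein genes TCF3, TCF4 and TCF12, the ligand gene BMP4 and the inhibitory SMAD genes SMAD6 and SMAD7. The members were listed by symbol and found through their Ensembl identifiers, and all 10 were present among the 58050 gene identifiers of the deposited table. They were chosen by the difference in TPM between the groups compared here, since the list was drawn up around ID2 with its higher level in the edited cells already known. The values below therefore describe the members, and no p-value is given for them.

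HCT116, a human line from a colorectal carcinoma, was sequenced as 5 cultures of unedited cells (HCT116-WT) and 5 cultures of cells in which CD276, an immune checkpoint molecule of the B7 family, had been targeted with Cas9 ribonucleoprotein (HCT116-CD276KO). All edited cultures descended from 1 single cell clone, so a property of this clone and an effect of CD276 loss cannot be told apart. A scrambled guide RNA served as transfection control, but the labels do not say whether the sequenced HCT116-WT cells had received it. Levels are given as TPM, a transcript abundance per unit of length with an equal total for each library, which keeps no record of sequencing depth.

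BMP ligands bind paired receptors that phosphorylate SMAD1, SMAD5 and SMAD9, and these enter the nucleus with SMAD4 and switch on a set of early targets. The ID genes are among the best known of these targets, together with SMAD6 and SMAD7, whose products block the receptors and close a negative feedback loop. ID proteins contain a helix-loop-helix but no DNA-binding region, so they capture E proteins and keep them from pairing with tissue-specific partners at E-box DNA. In the intestine BMP signalling restrains the stem cell compartment, and HCT116 cells carry an inactivated type II TGF-beta receptor gene.

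CD276 itself was at 38.1 to 53.6 TPM in HCT116-WT and at 4.4 to 7.42 TPM in HCT116-CD276KO. The groups therefore separated on the targeted gene, with transcript remaining in every edited library. Of the 13581 genes whose mean over all libraries reached 1 TPM, 662 or 4.87% had an adjusted p-value under 0.05 in limma, 106 of them higher (0.781%) and 556 lower (4.09%). Over these genes the median log2 fold change was -0.09. Libraries also differed in how their values ran with transcript length, measured as Spearman's rho across genes between length and each library's deviation from the gene mean. It ranged from -0.09 to 0.43 in HCT116-WT and from -0.52 to 0.32 in HCT116-CD276KO. HCT116-WT culture 3 and HCT116-CD276KO culture 2 stood apart by their trends with GC content (rho = 0.61 and 0.48, against -0.34 to 0.02 in the others), and HCT116-CD276KO cultures 2 and 3 by values that favoured short transcripts (rho = -0.52 and -0.49). A fit with the trends on length and GC content removed from each library is given beside the main one where it changes a result, and it called 9.64% of 13472 genes, 600 higher and 699 lower. The sum over 8 epithelial markers was 4370 to 5185 TPM in HCT116-WT and 3454 to 3924 TPM in HCT116-CD276KO. KRT8, KRT19 and KRT18 had the highest levels of these. CDX2 had means of only 8.91 and 9.27 TPM, and VIL1 was nearly absent, at 0 to 0.05 TPM in all libraries. In HCT116-CD276KO 6 of the 8 genes were called lower. The part of this shift in the results below was not tested. The sums of 8 fibroblast, 8 leukocyte and 5 endothelial markers stayed at or below 8.99, 15.5 and 0.66 TPM in all libraries, with 2 fibroblast markers and 1 leukocyte marker listed at 0 throughout.

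The ID genes were led by ID1, then ID2 and ID3 at similar levels, with ID4 almost silent. ID2 was 1.94-fold and ID3 1.44-fold higher in HCT116-CD276KO with no overlap between the groups, whereas ID1 was 1.16-fold higher with overlapping groups. Because members that share a regulator may share promoter letters, bases from the 250 before the RefSeq start of these 3 genes are shown first. They are read 5′ to 3′ on the strand of the gene from GRCh38.p14. Capitals mark CCAAT on the opposite strand in ID1, the only E-box of the window in ID2, and CAGAC, the core letters bound by SMAD proteins, in ID3. The ID1 sequence is chr20:31605039-31605282 on the plus strand, the ID2 sequence is chr2:8681806-8681856 on the plus strand, and the ID3 sequence is chr1:23559502-23559751 on the minus strand. The ID1 sequence stops where an annotated transcript begins, and the ID2 sequence at the end of its E-box, which reaches into one. The ID2 sequence is therefore only the far end of its window, 51 bases that do not reach the RefSeq start.
ID1: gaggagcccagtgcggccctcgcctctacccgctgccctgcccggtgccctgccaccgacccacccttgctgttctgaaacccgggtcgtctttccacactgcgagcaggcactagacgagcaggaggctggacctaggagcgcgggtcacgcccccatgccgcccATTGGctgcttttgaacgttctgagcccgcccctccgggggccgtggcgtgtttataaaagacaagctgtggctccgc
ID2: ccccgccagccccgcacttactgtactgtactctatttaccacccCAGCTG
ID3: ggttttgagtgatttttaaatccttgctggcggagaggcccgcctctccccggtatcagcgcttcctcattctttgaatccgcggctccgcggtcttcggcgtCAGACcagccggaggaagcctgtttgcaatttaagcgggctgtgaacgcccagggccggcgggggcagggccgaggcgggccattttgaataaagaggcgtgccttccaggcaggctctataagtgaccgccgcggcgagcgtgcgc

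Motif letters were searched on both strands over the 250 bases before each RefSeq start, with positions counted back from the start. Neither GGCGCC nor GCCGNCGC, GC-rich letters that BMP SMADs bind, was found in the windows of ID1, ID2 or ID3, against 16.4% and 12.9% of all 35116 windows. CAGAC was found once in ID3, at -147, and in 38.0% of all windows. An E-box, written CANNTG, was found once in ID2, at -205, and in 61.8% of all windows. CCAAT, which was added after the sequences had been seen, stood at -84 in ID1, at -172, -122 and -78 in ID2, beyond the stretch shown, and nowhere in the ID3 window, and 32% of all windows held it. No searched motif was common to all 3 windows. The windows do not reach the distal enhancers of the ID genes, and these letters are a description of sequence, not of binding.

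ID2 (ENSG00000115738, chr2:8678845-8684461, plus strand, hg38) encodes an ID protein linked to proliferation and blocked differentiation. Its level was 55.2, 55.9, 67.1, 62.5 and 56.9 TPM in HCT116-WT cultures 1 to 5 and 116, 124, 109, 118 and 110 TPM in HCT116-CD276KO cultures 1 to 5. The lowest edited culture lay well above the highest unedited one. The means were 59.5 ± 5.13 TPM and 116 ± 6.02 TPM (SD, n = 5 each), a log2 fold change of 0.95 on log2(TPM + 1) (SE 0.07, 95% interval 0.80 to 1.1). Only 54 of the genes tested had a larger log2 fold change, and among the 106 called higher ID2 stood at rank 6. As the list was drawn up around the higher level of ID2, nothing is read from this rank. The change was 0.92 to 0.99 when each library was left out in turn and 0.96 with the length and GC trends removed. An antisense gene, ID2-AS1, overlaps the start of the ID2 gene model. It was listed at 0.21 to 0.64 TPM in HCT116-WT and 0.22 to 0.77 TPM in HCT116-CD276KO, so its listed level was a small fraction of that of ID2 in every library. The libraries were strand-specific, but whether counting used the strand is not given in the sources used here.

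ID3 (ENSG00000117318, chr1:23557926-23559501, minus strand) is a small paralogue that responds rapidly to BMP. It was at 44.6, 44.4, 60.8, 49.0 and 46.5 TPM in HCT116-WT and at 70.9, 77.4, 71.4, 71.4 and 61.8 TPM in HCT116-CD276KO. The highest unedited culture, number 3, came within about 1 TPM of the lowest edited culture, number 5, but the groups did not overlap. The means were 49.0 ± 6.82 and 70.6 ± 5.58 TPM (SD, n = 5 each), a log2 fold change of 0.52 (SE 0.09, 95% interval 0.32 to 0.73). With the length and GC trends removed it was 0.51 (SE 0.06), and the corrected log2 levels were 5.55 to 5.83 in HCT116-WT and 6.04 to 6.22 in HCT116-CD276KO.

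ID1 (ENSG00000125968, chr20:31605283-31606515, plus strand), the most used transcriptional readout of BMP signalling, was the most abundant member in all 10 libraries. It was at 243, 238, 313, 264 and 246 TPM in HCT116-WT and at 279, 351, 321, 287 and 267 TPM in HCT116-CD276KO. HCT116-WT culture 3 lay above 3 of the 5 edited cultures, and the other unedited cultures lay below all of them. The means were 261 ± 31.1 and 301 ± 34.2 TPM (SD, n = 5 each), a log2 fold change of 0.21 with a 95% interval that began at 0.001 and ended at 0.41. The size of the change hardly moved when the length and GC trends were removed (0.20), but its SE fell from 0.09 to 0.05, and ID1 was then called. The corrected log2 levels still overlapped, with 8.16 in HCT116-WT culture 3 against 8.13 and 8.15 in HCT116-CD276KO cultures 5 and 1. The edited cultures with the highest ID1, 2 and 3, were also those whose values favoured short transcripts, and the part of that trend in the ID1 level is seen only through this correction.

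**Figure D1:**
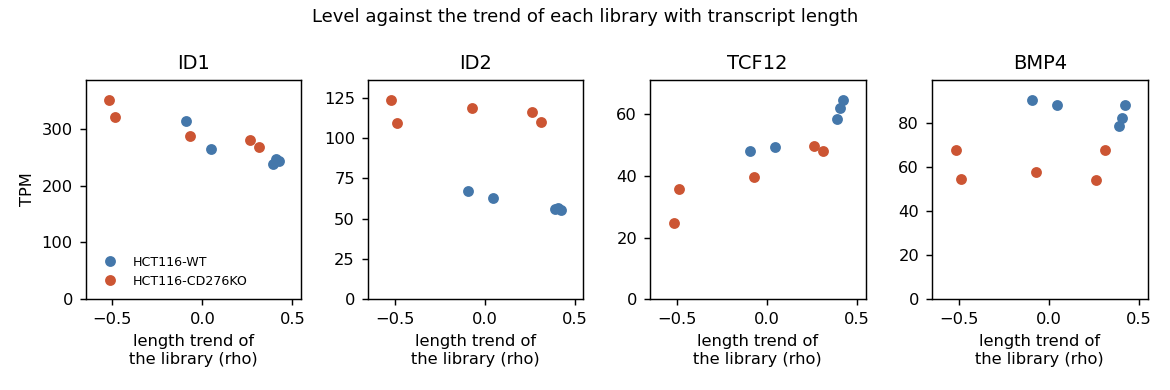
TPM of ID1, ID2, TCF12 and BMP4 (vertical axes, each from 0) in each library against that library's length trend, Spearman's rho across genes between transcript length and deviation from the gene mean (horizontal axis). Each point is 1 library. ID2 and BMP4 separate the groups at any trend, while ID1 is highest in the libraries with the lowest rho (351 and 321 TPM at -0.52 and -0.49) and TCF12 is lowest there.

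ID4 (ENSG00000172201, chr6:19837370-19842197, plus strand), which is often methylated and silent in tumours, was at 0.03 to 0.09 TPM in HCT116-WT and at 0.02 to 0.06 TPM in HCT116-CD276KO. It was too low to be tested. The 3 expressed ID genes differed in the size of their change. The ratio of ID2 to ID1 was 0.21 to 0.24 in HCT116-WT and 0.34 to 0.42 in HCT116-CD276KO, and the ratio of ID3 to ID1 was 0.18 to 0.19 and 0.22 to 0.25. Both ratios were thus higher in every edited culture than in any unedited one, while they varied little among the unedited cultures. ID2 made up 16.2 ± 0.57% of the summed ID transcripts in HCT116-WT and 23.8 ± 1.56% in HCT116-CD276KO (SD, n = 5 each).

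**Figure D2:**
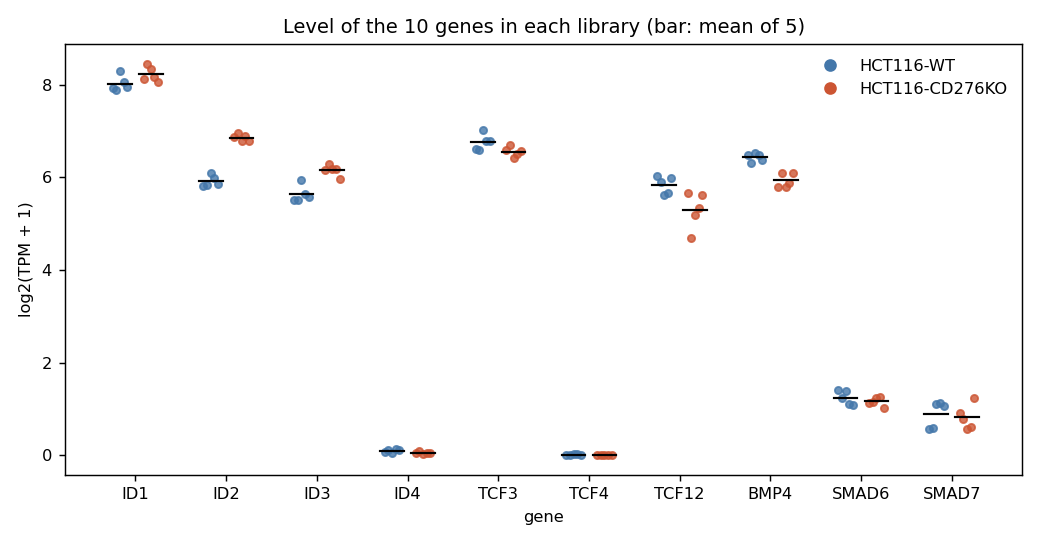
Level of the 10 genes on the log2(TPM + 1) scale (vertical axis) in each of 5 HCT116-WT (blue) and 5 HCT116-CD276KO (red) libraries, with bars at the group means. ID2, ID3 and BMP4 are the tested genes whose groups do not overlap, ID2 and ID3 being higher and BMP4 lower in HCT116-CD276KO, and ID4 and TCF4 lie near 0.

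Both expressed E protein genes had lower means in HCT116-CD276KO, by less than the ID2 change and with overlapping groups. TCF3 (ENSG00000071564, chr19:1609291-1652615, minus strand) encodes the splice products E12 and E47. It was at 97.4, 95.4, 130, 109 and 109 TPM in HCT116-WT and at 95.1, 103, 84.3, 89.3 and 94.3 TPM in HCT116-CD276KO. All edited cultures but culture 2 lay below the lowest unedited one, at 84.3 to 95.1 TPM against 95.4 TPM, while culture 2 lay inside the unedited range. The log2 fold change of -0.21 (95% interval -0.40 to -0.01) shrank to -0.06 (SE 0.06) with the length and GC trends removed.

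TCF12 (ENSG00000140262, chr15:56918623-57299281, plus strand) encodes HEB, which partners TCF3 products in many epithelia. It was at 64.6, 58.4, 47.9, 49.4 and 62.0 TPM in HCT116-WT and at 49.8, 24.8, 35.7, 39.7 and 48.1 TPM in HCT116-CD276KO. Edited culture 1 lay above unedited cultures 3 and 4 and edited culture 5 above unedited culture 3, so the groups overlapped. The log2 fold change was -0.53 (SE 0.17, 95% interval -0.90 to -0.16), and -0.38 without HCT116-CD276KO culture 2. TCF12 has a long transcript of 6114 bases in the annotation, and its TPM was lowest in the cultures whose values favoured short transcripts. With the trends removed its log2 fold change was -0.35 (SE 0.09), the groups no longer overlapped (5.60 to 5.83 against 5.06 to 5.57 on the corrected log2 scale), and TCF12 was called.

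TCF4 (ENSG00000196628, chr18:55222185-55664787, minus strand), the E protein E2-2 and not the Wnt effector TCF7L2 that shares this name in older usage, was listed at 0 to 0.02 TPM in all 10 libraries. E protein transcripts in these cells were thus those of TCF3 and TCF12. Their sum was 162, 154, 178, 158 and 171 TPM in HCT116-WT and 145, 128, 120, 129 and 142 TPM in HCT116-CD276KO, with no overlap (165 ± 9.84 against 133 ± 10.5 TPM, SD, n = 5 each). The difference was -34.7 to -28.4 TPM with a library left out and -21.9 TPM with median-of-ratios scaling. The sum was not computed with the length and GC trends removed, where the log2 fold changes shrank to -0.06 for TCF3 and -0.35 for TCF12. The summed ID transcripts were 369 ± 42.8 TPM in HCT116-WT and 487 ± 42.7 TPM in HCT116-CD276KO, and these overlapped because culture 3 of HCT116-WT (441 TPM) lay above culture 5 of HCT116-CD276KO (439 TPM).

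The ratio of summed ID to summed E protein transcripts was taken from TPM as deposited. It was 2.11, 2.20, 2.48, 2.38 and 2.04 in HCT116-WT and 3.22, 4.31, 4.18, 3.70 and 3.08 in HCT116-CD276KO. Each edited culture had at least 3.08 ID transcripts per E protein transcript and each unedited culture at most 2.48. The mean ratio was 1.65-fold higher in HCT116-CD276KO (2.24 ± 0.18 against 3.70 ± 0.55, SD, n = 5 each). The spread of the ratio was wider among the edited cultures, and its 2 highest values belonged to the cultures whose values favoured short transcripts, ID transcripts being short and E protein transcripts long. The ratio in the remaining edited cultures was 3.08 to 3.70. Among the edited cultures the ratio rose as rho with length fell, from 3.08 at a rho of 0.32 to 4.31 at -0.52. Among the unedited cultures it was highest, at 2.48, in culture 3, where rho was lowest (-0.09). The ratio was not computed with the length and GC trends removed, so the part of these trends in it was not tested. These are transcript levels, and protein levels and binding were not measured in these libraries.

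**Figure D3:**
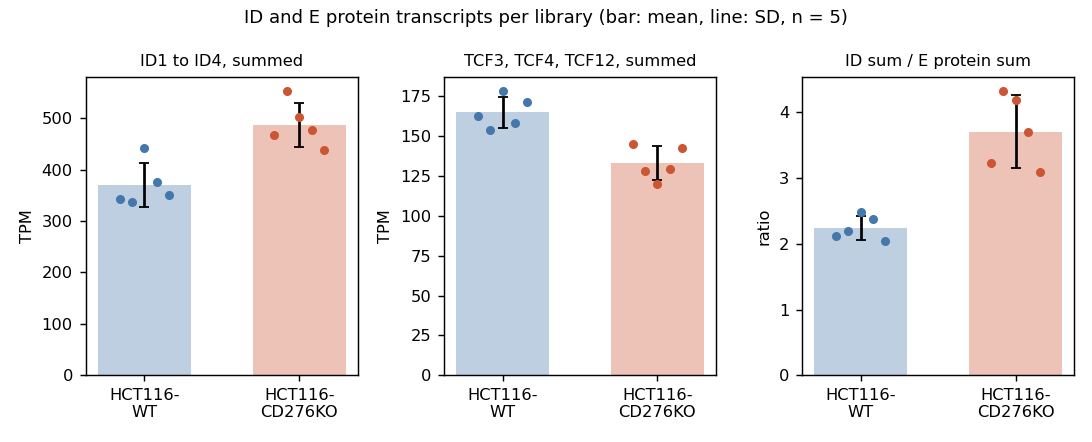
Summed TPM of ID1 to ID4, summed TPM of TCF3, TCF4 and TCF12, and the ratio of the sums in each library (points), with the mean (bar) and SD (line) of 5 libraries a group. The ID sums overlap, the E protein sums do not, and the ratio runs from 2.04 to 2.48 in HCT116-WT and from 3.08 to 4.31 in HCT116-CD276KO.

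Of the 35 class II partners of E proteins that were listed, the tissue-specific helix-loop-helix factors, only MESP1 and BHLHA15 reached a mean of 1 TPM and 12 were listed at 0 in every library. MESP1, a mesoderm factor, was at means of 12.9 and 12.3 TPM in HCT116-WT and HCT116-CD276KO (log2 fold change -0.09, limma adjusted p = 0.698), and BHLHA15, a secretory cell factor, at 2.83 and 2.64 TPM (-0.07, adjusted p = 0.815). When all 30818 genes above 0 TPM were tested, which called 1.76% of them, 3 partners below 1 TPM were called, all lower in HCT116-CD276KO. They are named here after their values were seen. TWIST1, a driver of mesenchymal programmes, was at 0.82, 0.86, 1.2, 0.99 and 0.85 TPM in HCT116-WT and at 0.58, 0.33, 0.31, 0.33 and 0.42 TPM in HCT116-CD276KO (limma adjusted p = 0.0134). LYL1, a haematopoietic factor, fell from 0.73 to 1.18 TPM to at most 0.18 TPM (adjusted p = 0.00081). TAL2, its relative, fell from 0.13 to 0.27 TPM to 0.05 to 0.07 TPM (adjusted p = 0.0427). All 3 separated the groups, at levels near the low end of the table.

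BMP4 (ENSG00000125378, chr14:53949736-53958761, minus strand), the main BMP ligand transcript of these cells, moved opposite to ID2 and ID3. It was at 88.2, 78.8, 90.8, 88.2 and 82.7 TPM in HCT116-WT and at 54.2, 67.7, 54.6, 58.0 and 67.8 TPM in HCT116-CD276KO. All edited cultures lay below all unedited ones. The means were 85.7 ± 4.87 and 60.5 ± 6.83 TPM (SD, n = 5 each), a log2 fold change of -0.50 (SE 0.08, 95% interval -0.68 to -0.33), and -0.45 with the trends removed. Less BMP4 RNA per cell and fewer cells that express it cannot be told apart in bulk RNA, and the same holds for the other genes here.

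Of 13 other BMP and GDF ligands, 4 were tested and none was called in the main comparison, while 7 were listed at 0 in every library. BMP7, which acts through the same receptors, was at 6.74, 6.49, 7.56, 5.94 and 7.34 TPM in HCT116-WT and at 8.84, 9.05, 8.13, 8.75 and 8.31 TPM in HCT116-CD276KO. Its groups did not overlap, and its log2 fold change was 0.30 (SE 0.08, 95% interval 0.13 to 0.47). The limma adjusted p of 0.0501 missed the threshold and ranged from 0.00167 to 0.13 over the other settings, 0.00167 being the value with the length and GC trends removed. BMP8B had a log2 fold change of -0.12 (adjusted p = 0.514). BMP2, the closest relative of BMP4, was nearly silent, at 0.02 to 0.08 TPM in HCT116-WT and 0 to 0.01 TPM in HCT116-CD276KO.

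None of the tested receptors, co-receptors or signal-carrying SMADs was called in the main comparison. The tested receptors and co-receptors numbered 7 of the 11 listed, with a median log2 fold change of -0.11 against -0.09 for all genes. BMPR1A, a type I BMP receptor, was at 26.5 ± 3.36 and 26.5 ± 6.46 TPM (log2 fold change -0.02, 95% interval -0.37 to 0.32, adjusted p = 0.937). ACVR1, another type I receptor, had a log2 fold change of -0.08 (adjusted p = 0.636). ACVR2A, a type II receptor named here after its values were seen, was called with the trends removed (log2 fold change 0.33, adjusted p = 0.00323) but not before (0.19, adjusted p = 0.361). ACVR2B, another type II receptor named after its values were seen, went the other way and was called in neither fit. Its log2 fold change was -0.48 (95% interval -0.82 to -0.13, limma adjusted p = 0.113), and -0.21 with the trends removed (adjusted p = 0.0753). All 4 signal SMADs were tested, with a median log2 fold change of -0.21 that became -0.05 with the trends removed. SMAD4, the shared partner, was at 64.9 ± 6.33 and 57.4 ± 13.1 TPM (log2 fold change -0.20, 95% interval -0.50 to 0.11, adjusted p = 0.408), and SMAD5, a receptor-activated SMAD, at 53.3 ± 4.47 and 44.2 ± 10.8 TPM (-0.30, 95% interval -0.63 to 0.03, adjusted p = 0.265). These intervals leave room for changes of moderate size in either gene.

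The groups overlapped for both feedback genes. SMAD6 (ENSG00000137834, chr15:66702236-66782849, plus strand), which blocks BMP receptors and SMAD1, was at 1.67, 1.35, 1.61, 1.14 and 1.11 TPM in HCT116-WT and at 1.19, 1.22, 1.37, 1.39 and 1.04 TPM in HCT116-CD276KO. The edited range lay almost wholly inside the unedited one. The log2 fold change was -0.08 (SE 0.11, 95% interval -0.32 to 0.17), and its sign turned with the trends removed (0.05). SMAD7 (ENSG00000101665, chr18:48919853-48950965, minus strand), which blocks both BMP and TGF-beta receptors, was at 0.47, 0.51, 1.14, 1.19 and 1.09 TPM in HCT116-WT and at 0.88, 0.72, 0.49, 0.53 and 1.37 TPM in HCT116-CD276KO. Its mean fell short of the 1 TPM needed for a test, and the groups overlapped over most of their ranges.

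Inhibitors outside the receptor loop also showed no called change. Among 16 secreted BMP inhibitors, 5 were tested and none was called, with a median log2 fold change of -0.20 that became -0.02 with the trends removed. NBL1, a secreted antagonist of the DAN family, had a log2 fold change of -0.20 (adjusted p = 0.274), and TWSG1, which binds BMP with chordin, one of -0.23 (adjusted p = 0.256). Among 7 intracellular brakes of SMAD signalling, all tested, none was called. SMURF2, a ubiquitin ligase for SMADs and their receptors, had a log2 fold change of -0.26 (adjusted p = 0.278), and STUB1, a chaperone-linked ubiquitin ligase, one of 0.17 (adjusted p = 0.366).

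**Figure D4:**
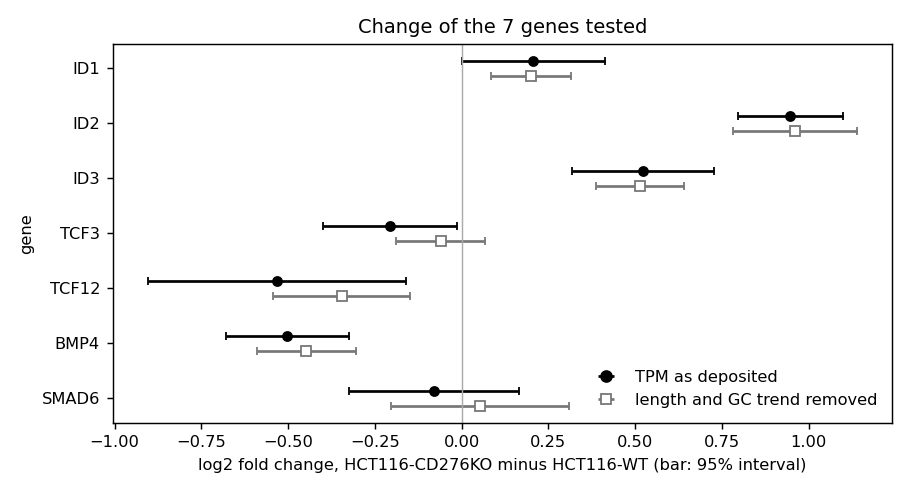
Log2 fold change of the 7 tested members, HCT116-CD276KO minus HCT116-WT, with 95% intervals, from TPM as deposited (filled circles) and with each library's trend on length and GC content removed (open squares). ID2 and ID3 lie to the right of 0 and BMP4 and TCF12 to the left in both fits, and SMAD6 changes side.

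Counted over the members, 7 of 10 passed the level filter and 3 were called, ID2 and ID3 higher and BMP4 lower. Of all genes tested, 0.781% were called higher and 4.09% lower. Groups without overlap were seen for the same 3, against 1.42% of all genes tested that lay wholly higher and 6.19% that lay wholly lower in HCT116-CD276KO. As the members were chosen for a change in this comparison, nothing is read from these counts. ID2, ID3 and BMP4 were called in all 20 settings. ID1 and TCF12 were added with the length and GC trends removed, which made 5 (3 higher, 2 lower), in a fit that called 9.64% of all genes. TCF12 alone of the pair was added when the replicate number was also a block.

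In the main comparison no other listed BMP target was called higher beside ID2 and ID3, whereas with the length and GC trends removed ID1 and MSX1 were called higher too. Of 11 further targets listed, 5 were tested and 3 were called lower in the main comparison, against 4.09% of all genes tested. The 5 had a median log2 fold change of -0.53 against -0.09 over all genes. BAMBI, a decoy receptor induced by BMP as a further feedback brake, was at 3.71, 3.84, 3.67, 3.53 and 3.81 TPM in HCT116-WT and at 1.96, 1.92, 2.43, 2.22 and 1.98 TPM in HCT116-CD276KO. The groups were far apart, with a log2 fold change of -0.61 (SE 0.08, limma adjusted p = 0.00173), and BAMBI was called in all 19 settings that tested it. MSX2, a homeobox target of BMP in many tissues, fell from 7.33 ± 0.50 to 4.77 ± 0.39 TPM (log2 fold change -0.53, SE 0.08, adjusted p = 0.00298) and was called in all 20 settings. GATA3, a transcription factor of luminal and lymphoid cells, fell from 2.14 ± 0.23 to 1.08 ± 0.25 TPM (-0.60, SE 0.11, adjusted p = 0.0119). That call was lost with the replicate number as a block, at an adjusted p of 0.0561, and with block and correction together, at 0.0579.

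The remaining tested targets went both ways. MSX1, the paralogue of MSX2, was at 56.1, 55.4, 73.5, 64.1 and 61.2 TPM in HCT116-WT and at 68.9, 88.8, 80.8, 73.9 and 74.5 TPM in HCT116-CD276KO. Like ID1 and ID3, it was highest among the unedited cultures in culture 3, which alone lay inside the edited range. Its log2 fold change of 0.32 (SE 0.09) missed the threshold (adjusted p = 0.0765) and passed it with the length and GC trends removed (0.37, adjusted p = 0.00658). GATA2 had a log2 fold change of -0.35 (adjusted p = 0.112). RUNX2, a bone-forming factor below the level filter, was at 0.34 to 0.62 TPM in HCT116-WT and 0.15 to 0.28 TPM in HCT116-CD276KO and was called lower when all genes above 0 TPM were tested (adjusted p = 0.0131). MSX1, GATA2 and RUNX2 are named here after their values were seen. ATOH8, HEY1, DLX5, TMEM100 and HAMP were below the filter.

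**Figure D5:**
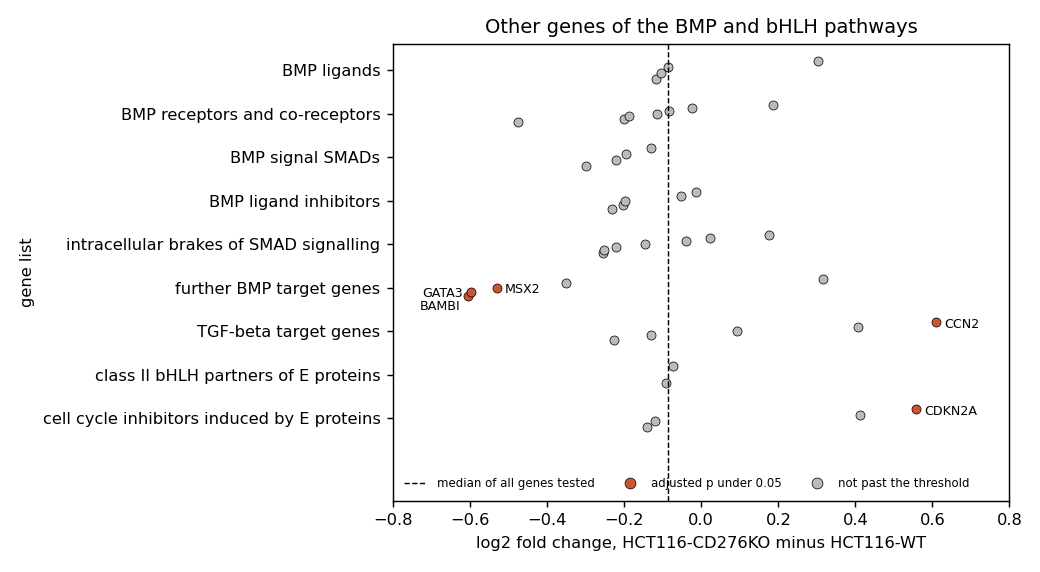
Log2 fold change (horizontal axis, HCT116-CD276KO minus HCT116-WT) of the 43 tested genes in 9 lists, 1 list a row and 1 point a gene, with genes past an adjusted p of 0.05 in red and named. The dashed line is the median of all genes tested, -0.09. Most points lie near or left of it, and the called genes are BAMBI, MSX2 and GATA3 on the left and CCN2 and CDKN2A on the right.

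TGF-beta uses the same SMAD4 but other receptor-activated SMADs, and its targets were listed to set beside the BMP targets. Of 9 listed, 5 were tested and CCN2 was called. CCN2, a matricellular growth factor that many signals induce, rose from 2.26 ± 0.34 to 4.00 ± 0.76 TPM with no overlap (log2 fold change 0.61, SE 0.12, adjusted p = 0.0153) and was called in all 19 settings that tested it.

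E proteins induce inhibitors of the cell cycle, and ID proteins oppose them. Of the 4 inhibitors listed, CDKN2A was called in the main comparison and it was higher in HCT116-CD276KO, at 69.0 ± 12.9 against 102 ± 12.7 TPM (log2 fold change 0.56, SE 0.12, adjusted p = 0.0214). HCT116-WT culture 3 reached 92.0 TPM and overlapped the edited cultures, the adjusted p ranged up to 0.0664, and the call held in 14 of 20 settings. Its gene-level value covers transcripts of both proteins made from the locus. CDKN1A, a well known target of E47 named here after its values were seen, had means of 243 and 223 TPM (log2 fold change -0.12, 95% interval -0.31 to 0.07, adjusted p = 0.407), and CDKN2B, also named after its values were seen, had means of 4.31 and 6.24 TPM (0.41, adjusted p = 0.19). With the length and GC trends removed CDKN2B was called higher as well (0.55, adjusted p = 0.0247). Over all 9 lists 43 of 110 genes were tested, and 2 were called higher and 3 lower, against 0.781% and 4.09% of all genes tested. With the length and GC trends removed 8 were called higher and 3 lower, against 600 and 699 of all 13472 genes.

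The genes whose pattern over the 10 libraries was most like that of ID2 were found by the root mean square difference of gene-centred log2(TPM + 1) values. They included TESC, a calcium-binding protein gene, at 0.09 (18.8 ± 2.18 against 38.2 ± 3.95 TPM), EXO5, a DNA exonuclease gene, at 0.12 (0.72 against 2.04 TPM), ZNF433-AS1, an antisense RNA gene, at 0.20 (3.69 against 7.33 TPM) and HLA-DRA, an MHC class II gene, at 0.21 (1.94 against 3.87 TPM). Among the members ID3 came nearest, at 0.22 and rank 13 of all genes tested, and ID1 followed at 0.38 and rank 375. The measure finds genes with a change of like size between the same groups, and no test was made on it.

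None of the genes beside ID2 on chromosome 2 was called higher. Of the 8 tested genes that start within 1 Mb of the ID2 start, all of them downstream, 1 was called lower, with a median log2 fold change of -0.15. The nearest, KIDINS220, starts 159 kb away and had a log2 fold change of -0.17. The 1 called was IAH1, an esterase gene that starts 795 kb away, which fell from a mean of 29.6 to 10.9 TPM (log2 fold change -1.38, SE 0.09, limma adjusted p = 3.77e-06).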

How the data were processed

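Polyadenylated RNA of 10 HCT116 cultures was read as strand-specific single reads. The authors mapped it to hg38 with STAR 2.5.2b, quantified it with RSEM 1.3.0 and featureCounts 1.5.1, and deposited TPM for 58050 Ensembl genes with 2 decimals. Which program gave the TPM is not given in the sources used here. TPM keep no depth, so precision was taken from the 5 cultures a group, and p-values measure only the spread between these cultures.

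Symbols were matched for 56947 of the identifiers. Genes whose mean over the 10 libraries reached 1 TPM were compared on log2(TPM + 1) with limma 3.58.1 (R 4.3.3), with empirical Bayes moderation, a variance trend and two-sided Benjamini-Hochberg adjustment over all 13581 genes. Fold changes on this scale understate those of low genes. In an alternative, each library's trend on transcript length and GC content (GENCODE 44) was removed by local regression with a span of 0.3. This correction also centres each library. Further settings took the replicate number as a block, left out each library, used robust variances, quantile normalization or median-of-ratios scaling, lowered the pseudocount to 0.1, or moved the filter to a mean of 5 TPM or to any value above 0 TPM. Tables and figures used Python 3.11.15, numpy 2.4.6, pandas 2.3.3 and matplotlib 3.10.9.

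The members and lists were chosen with earlier results of these data known. Genes named were the members, CD276, in each list the called genes (at most 6) or else the 2 with the highest mean TPM, and the 5 nearest to ID2, of which 1 is not reported here. Promoters came from RefSeq on GRCh38.p14 (all 10 members matched) and positions of genes from GENCODE 44 on hg38, a newer annotation than that of the authors.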

Additional observations from a re-analysis of the deposited data

Results flagged for a closer look

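Single libraries that stood far from the other 4 of their group were looked for in 62 groups, and 4 were found by Dixon's test at a gap of over 0.71 of the range, where chance gives about 1 in 20 groups. ID3 in HCT116-WT had its highest value in culture 3, at 60.8 TPM against 44.4 to 49.0 TPM in the others (0.716 of the range). CDKN2A in HCT116-WT was also highest in culture 3, at 92.0 TPM against 62.1 to 65.5 TPM (0.888). NBL1 in HCT116-CD276KO was at 79.3 TPM in culture 2 against 63.1 to 64.96 TPM (0.886). TCF4 in HCT116-CD276KO was listed at 0.01 TPM in culture 4 and at 0 in the others (1.0), which is the smallest step of the table.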

How the results depend on the processing

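ID2, ID3 and BMP4 kept their direction in all settings run and were called in each. As the members were chosen for a change in this comparison, these calls describe them and are no support. The number of genes called, 662, became 1299 with the length and GC trends removed and 343 to 857 with a library left out, falling more than 1.5 times without HCT116-WT culture 1 (345), 2 (376), 4 (421) or 5 (343) or HCT116-CD276KO culture 3 (407) or 4 (375). The split of 106 higher and 556 lower became 191 and 389 with median-of-ratios scaling, 253 and 385 with quantile normalization and 600 and 699 with the length and GC trends removed, where 5 members were called in place of 3.

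In the lists, BMP ligands went from 0 called to 1 with a pseudocount of 0.1, median-of-ratios scaling, quantile normalization, the length and GC correction alone or with the replicate block, and without HCT116-WT culture 3 (0 to 1 with a library left out). Receptors went from 0 to 1 with that correction, alone or with the block, and without HCT116-CD276KO culture 1 (0 to 1). Further BMP targets went from 3 to 1 with the filter at a mean of 5 TPM, which left BAMBI and GATA3 untested. TGF-beta targets went from 1 to 0 there, as CCN2 was left untested too. They went to 2 with median-of-ratios scaling or quantile normalization, and to 3 with the correction or 2 with correction and block. Class II partners went from 0 to 3 when all genes above 0 TPM were tested, the only setting that tested these 3. Cell cycle inhibitors went from 1 to 0 there, to 2 with the correction, and to 0 without HCT116-WT culture 1, 2, 4 or 5 or HCT116-CD276KO culture 3 (0 to 1). The causes of the other changes were not tested. The replicate numbers did not pair the samples (correlation of same-numbered deviations -0.18 to 0.12), and a fit with the number as a block called 378 genes. As TPM hold no counts, no limit of detection is given for the low members ID4, TCF4 and SMAD7.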
